A study of Mus musculus with 605 samples.

Results

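Single cells labelled as myeloid, taken from mouse dorsal skin at postnatal day 56, were selected on, and divided by, their own Ccr7 transcript level. Of 155 such cells, 145 passed the limits on quality, out of 605 cells in the 7 groups of the series. A cell was called Ccr7-positive when Ccr7 stood at 1 TPM (a transcript level corrected for transcript length and library size) or more. This gave 42 Ccr7-positive and 103 Ccr7-negative cells. The wild-type (WT) group had 15 positive and 58 negative cells. The mutant group, labelled Mut, had 27 positive and 45 negative cells. The mutant of the study's single-cell work is the Tyr-Nras Q61K mouse, in which the Tyr enhancer and promoter direct the oncogene to melanocytes, as a model of congenital nevi. No agent was given to either group in the labels. The labels name no animal, no sort for the myeloid cells and no batch. Each genotype is thus 1 sample of unknown makeup, genotype and any batch cannot be told apart, and no test between groups was possible. Because Ccr7 itself divided the cells, every difference between positive and negative cells below is a description of these cells.

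Ccr7 is the receptor for the chemokines Ccl19 and Ccl21, which line the path from the tissue through lymphatic vessels to the lymph node. Dendritic cells of the skin switch it on when they mature, along with costimulatory molecules, NF-kB pathway genes and the actin-bundling protein Fscn1, and then leave for the node. T cells also use it, since naive and some regulatory or memory T cells travel between blood, tissue and node. The question was which of these the positive cells resembled. Resident macrophages, marked by the complement genes C1qa, C1qb and C1qc, are known to stay in the tissue.

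Ccr7 was read strongly or not at all. In the 15 positive WT cells its level ran from 2.1 to 14227 TPM with a median of 961.9 TPM, and in the 27 positive mutant cells from 1.4 to 15702 TPM with a median of 1915 TPM. On the log2 scale used throughout, log2 of TPM scaled to 10000 per cell plus 1, the means were 3.29 ± 1.90 (SD over 15 WT cells) and 4.26 ± 1.75 (SD over 27 mutant cells), so the genotypes overlapped widely. Of the 42 positive cells, 39 stood at 100 TPM or more and 25 at 1000 TPM or more, with 2 under 10 TPM. The cells nearest the limit from above had 1.4 TPM (mutant) and 2.1 TPM (WT), and the nearest below it had 0.9 TPM in each genotype. Of the 103 negative cells, 97 were listed at 0 and the other 6 lay between 0.3 and 0.9 TPM. The gene lies at chr11:99144199-99155077 in GRCm38.p6.

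**Figure D1:**
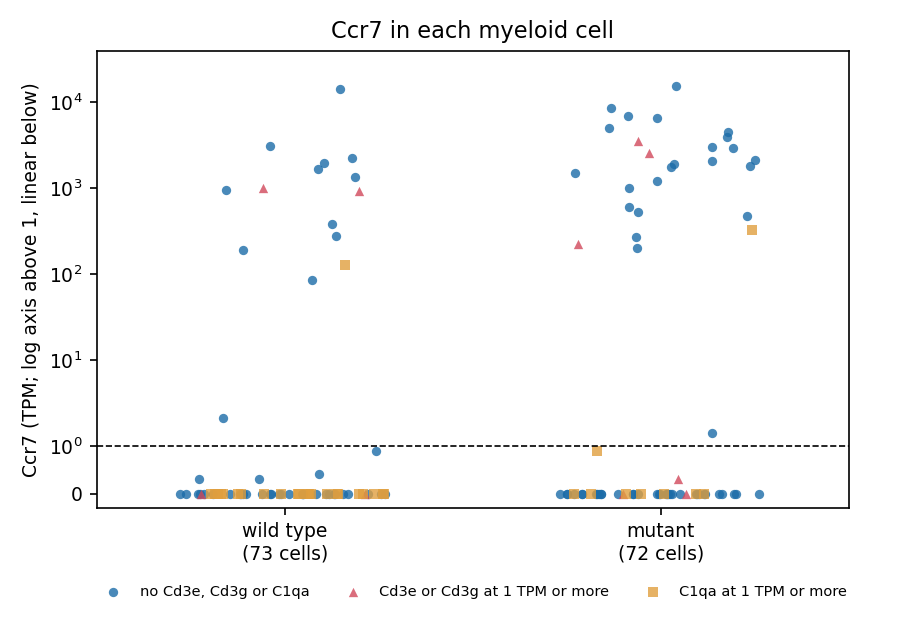
Ccr7 level of each myeloid cell by genotype, in TPM on a log axis, with cells marked by whether they held Cd3e or Cd3g. Positive cells reach 14227 TPM in WT and 15702 TPM in mutant, and the 5 positive cells with Cd3e or Cd3g lie among them, from 225.1 to 3555 TPM. The 5 negative cells with Cd3e or Cd3g lie at 0 to 0.3 TPM.

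The positive share was 20.5% in WT (15 of 73 cells, exact Clopper-Pearson 95% interval 11.98 to 31.6%) and 37.5% in mutant (27 of 72, 26.4 to 49.7%). These intervals overlap, cover counting error only, and do not hold the variation between mice. The share of C1qa-positive cells ran the other way, at 31.5% in WT (23 of 73, 21.1 to 43.4%) and 12.5% in mutant (9 of 72, 5.88 to 22.4%). Among cells without C1qa, Cd3e or Cd3g, Ccr7 was positive in 26.1% of WT cells (12 of 46, 14.3 to 41.1%) and 40.4% of mutant cells (23 of 57, 27.6 to 54.2%). Well position moved with the WT share. Row H of the WT wells, singled out after its values were seen, held 6 positive cells of 10 (60%, 26.2 to 87.8%). Rows A to G held 9 of 63 (14.3%, 6.75 to 25.4%), and C1qa was found in 1 of the 10 and in 22 of the 63. Rows A to D held 4 positive cells of 39, and rows E to H 11 of 34. The part of well position in the WT share was not tested. In the bulge and melanocyte groups of the series, which should lack Ccr7, it was positive in 1 of 90 mutant bulge cells and 1 of 81 WT melanocytes. It was found in 0 of 84 WT bulge cells at day 30, 0 of 90 at day 56 and 0 of 84 mutant melanocytes, counts that allow shares of up to 3.57%, 3.33% and 3.57% by the limit of 3 counts over the total, or 4.30%, 4.02% and 4.30% by the exact interval.

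The positive cells were of several kinds. With lines set after the values were seen, 35 of the 42 held H2-Ab1, a chain of MHC class II, at 1000 TPM or more and no Cd3e or Cd3g. Another 5 held the T cell receptor chains Cd3e and Cd3g, and 2 held neither. The gap around the H2-Ab1 line was wide: the 7 cells under it read at most 8.2 TPM, while the lowest cell above it had 2406 TPM. Thus 83.3% of positive cells (exact 95% interval 68.6 to 93.03%) were above the class II line, and 11.9% (3.98 to 25.6%) carried Cd3 genes. Among Ccr7-negative cells 87.4% (79.4 to 93.1%) were above the class II line, and 4.85% (1.59 to 10.97%) had Cd3e or Cd3g. Seen from the other side, 5 of the 10 cells with Cd3e or Cd3g were positive for Ccr7, 2 of 4 in WT and 3 of 6 in mutant.

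**Figure D2:**
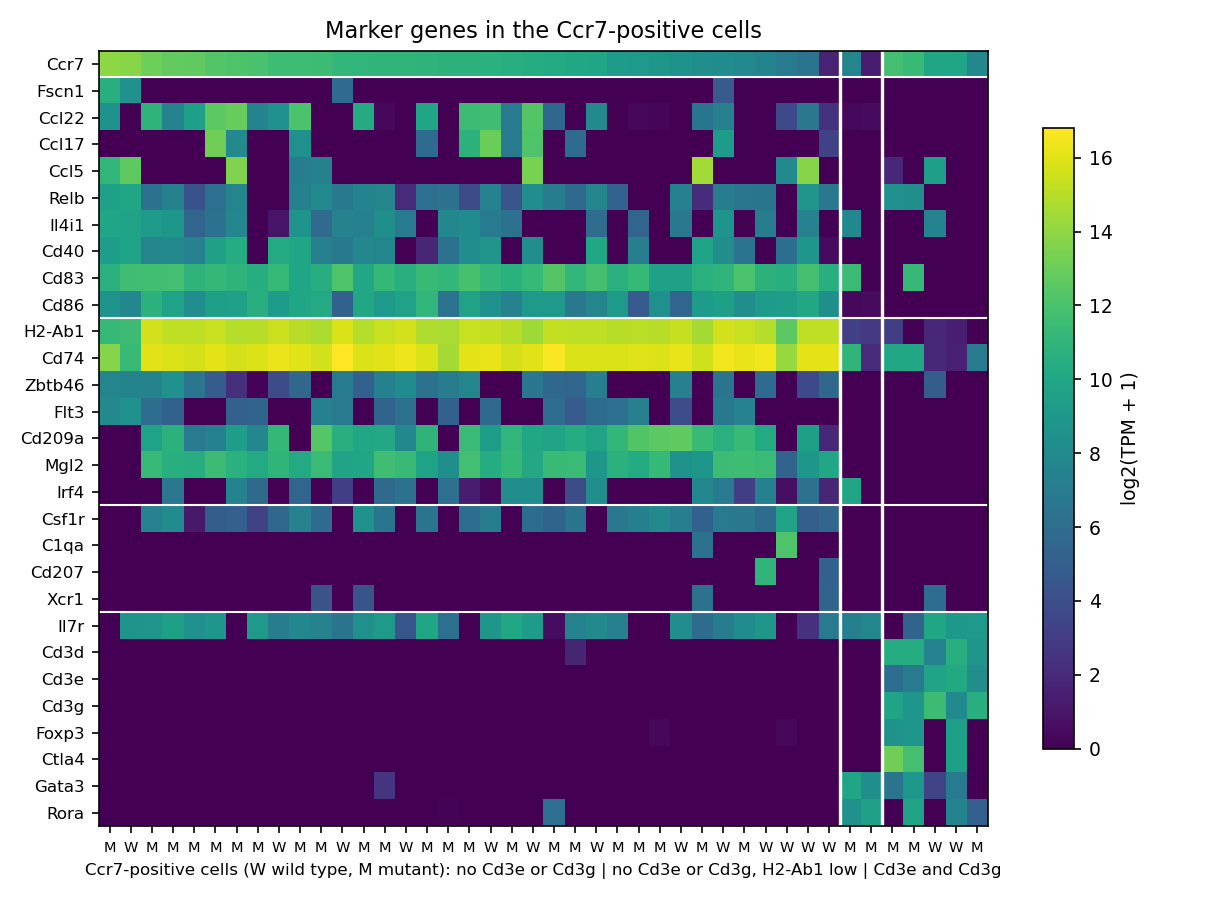
Level of marker genes (rows) in each of the 42 Ccr7-positive cells (columns, ordered by Ccr7 within kinds), as log2 of unscaled TPM plus 1. The 5 columns at the right have Cd3d, Cd3e and Cd3g with little or no class II, and the 35 class II cells have no Cd3e or Cd3g.

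The 35 class II cells held both dendritic and some macrophage genes. Cd83 and Cd86, which mark maturation and give costimulation, and Traf1, an adaptor of TNF receptors, were found in 35 of 35. Cd83 ran from 785.5 to 4955 TPM with a median of 2203 TPM. Zbtb46, a transcription factor of conventional dendritic cells, was found in 25 and the growth factor receptor Flt3 in 20. The lectins Mgl2 and Cd209a, which in skin mark type 2 conventional dendritic cells (cDC2), were found in 33 and 30 cells, with median levels of 1434 and 1089 TPM. Of the 11 cDC2 genes listed, a cell had a median of 8. Of the 18 macrophage genes a cell had a median of 6, among them Csf1r in 28 cells, the mannose receptor Mrc1 in 27 and the scavenger receptor Cd163 in 19. Many of these genes were also common in the 61 Ccr7-negative cells above the class II line with no C1qa, Cd3e or Cd3g, with Cd83 in 59, Cd86 in 56, Traf1 in 57, Flt3 in 33, Zbtb46 in 33, Mgl2 in 45, Csf1r in 36 and Mrc1 in 38. Genes of type 1 dendritic cells were rare in the 35: the chemokine receptor Xcr1 was in 4 cells and Irf8 in 3. The Langerhans cell lectin Cd207 was in 2 WT cells, 1 of them at 2011 TPM, and in none of the 27 positive mutant cells, a count that allows a share of up to 11.1% by the limit of 3 counts and 12.8% by the exact interval. C1qa was in 2 cells, at 4592 TPM in a WT cell that held 12 of the 18 macrophage genes and at 74.8 TPM in a mutant cell.

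Genes of mature migratory dendritic cells were found unevenly in the 35 cells. Birc3 was found in 34, Relb in 30 and Il4i1 in 23, and in 44, 43 and 19 of those 61 Ccr7-negative cells. Fscn1 was found in 4 of the 35 cells. Ccl22, a chemokine that draws T cells through Ccr4, was found in 22, from 0 to 7505 TPM with a median of 98.9 TPM. Ccl17, its close relative, was found in 11. Of 28 listed genes of mature migratory dendritic cells, which do not include Ccr7, the 35 cells held 5 to 22 with a median of 10. The same 61 Ccr7-negative cells held 2 to 12 with a median of 7. Lamp3, another marker of mature dendritic cells, was listed at 0 in every cell of both genotypes.

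The cells with the 2 highest Ccr7 levels, 1 of each genotype and singled out after their values were seen, differed from the other 33. The mutant cell, at 15702 TPM Ccr7, had 22 of the 28 mature migratory genes, and the WT cell, at 14227 TPM, had 18, while the other 33 cells had 5 to 17. Fscn1 stood at 1572 TPM in the mutant cell and 367 TPM in the WT cell. Relb, an NF-kB subunit that dendritic cell maturation needs, stood at 794.4 and 990.9 TPM against a median of 97.6 TPM over all 35. Il4i1, an amino acid oxidase, stood at 994.8 and 806.8 TPM. The chemokine gene Ccl5 stood at 2110 and 6225 TPM, but its level did not set the pair apart. It was found in 7 of the other 33 cells, at up to 22875 TPM. The cDC2 lectins Mgl2 and Cd209a, the inflammatory cytokine Il1b and the growth factor receptor Csf1r were listed at 0 in both cells. Mgl2 was found in 33 of the other 33 and Cd209a in 30. H2-Ab1 was also lower in this pair, at 2406 and 2920 TPM, against a median of 36585 TPM over the 35 cells.

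**Figure D3:**
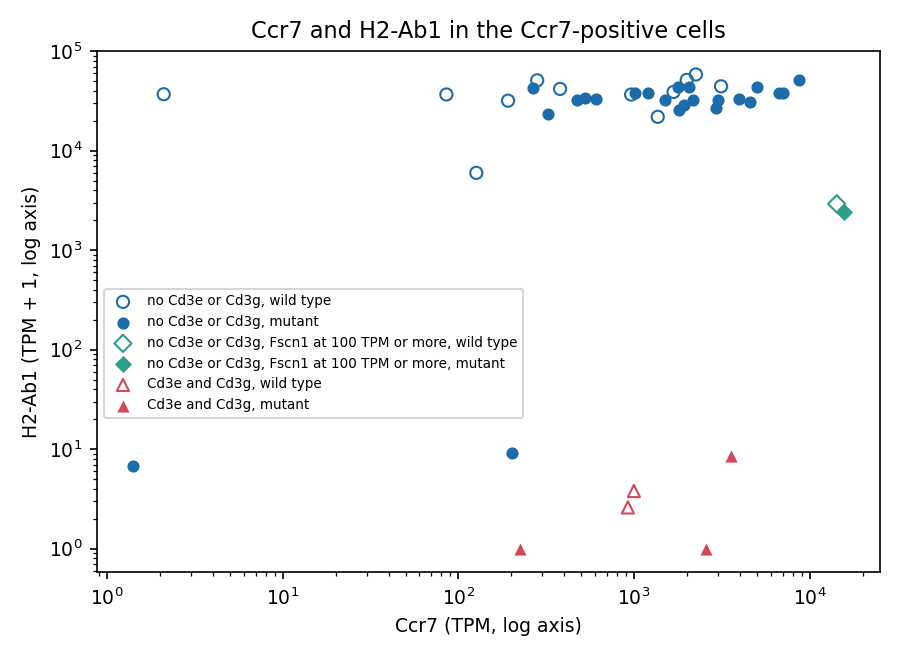
Ccr7 against H2-Ab1 in each Ccr7-positive cell, both in TPM on log axes, by genotype. The 2 cells of highest Ccr7 sit at 2406 and 2920 TPM H2-Ab1, and the 7 cells at 8.2 TPM or less hold the 5 with Cd3 genes.

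The 5 cells with Cd3e and Cd3g were T cell-like by the listed markers. Each also held Cd3d, from 176.4 to 1542 TPM, and they had 8 to 13 of 17 listed T cell genes, where the 35 class II cells had at most 1. Their Ccr7 levels were 3555, 2560 and 225.1 TPM in the mutant cells and 997.1 and 922 TPM in the WT cells. Foxp3, the transcription factor of regulatory T cells, stood at 375.9 and 444.7 TPM in 2 mutant cells and 711.3 TPM in 1 WT cell. The same 3 cells held the inhibitory receptor Ctla4, at 8958, 3760 and 763.8 TPM, and the TNF receptor Tnfrsf4, at 3167, 7580 and 1300 TPM. Cd4 was found in 1 of the 5 positive cells. Tyrobp, Csf1r, Il1b, Cd209a and Mgl2, genes of myeloid cells, were listed at 0 in each of the 5 positive cells. In the 5 Ccr7-negative cells with Cd3e or Cd3g, Foxp3 was found in none.

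Set against these 5, the other 37 positive cells had higher class II levels and lower levels of T cell genes. Among the 12 largest differences on the log2 scale were 7.91 for H2-Ab1, 7.58 for H2-Aa, 7.16 for the invariant chain Cd74, 7.12 for H2-Eb1, 4.74 for the lectin Lgals3, 4.69 for the signalling adaptor Tyrobp and 4.03 for Il1b, with Wfdc17, Ifi30, Cst3, Ifitm2 and Ctss between 3.83 and 4.59. Cd3g, which helped to choose the 5 cells and is 0 in the others by that choice, differed by -3.50. The genes not used in the choice included the costimulatory receptor Icos at -3.37, Tnfrsf9 at -3.26, Tnfrsf18 at -3.23 and the chemokine receptor Ccr8 at -3.14. Cd3d, Lime1, Ly6e, Ctla4, Il2rb, Tnfrsf4 and Rgs2 lay between -3.31 and -3.02. Ly6e and Rgs2 were also found in 27 and 17 of the other 37 positive cells. The 5 T cell-like cells had fewer genes, 1710 to 2446, than most other positive cells. The 2 positive cells with neither Cd3 nor high H2-Ab1 were mutant. They had Ccr7 at 1.4 and 200.5 TPM, and held Gata3 and Rora, transcription factors of lymphocytes and innate lymphoid cells, at 324.6 to 997.6 TPM and 362.6 to 774.6 TPM. They had 8 and 6 of the 17 T cell genes and Il7r at 212.5 and 150 TPM, and Flt3, Zbtb46 and Csf1r were listed at 0 in both.

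Across the 42 positive and 103 negative cells, 7711 genes were compared. A gene was counted when its mean differed by 1 or more on the log2 scale in the same direction in both genotypes. By this rule 11 genes were higher (0.143% of those compared) and 3 lower (0.0389%) in positive cells. The median difference over all genes was -0.01 in each genotype, and 1986 of the 7711 genes were higher and 2553 lower in both genotypes by any size. Detection was similar on both sides: positive cells had a median of 2879 genes in WT and 2965 in mutant, and negative cells 2960.5 and 2828.

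The 11 higher genes were Gadd45b, Bcl2a1b, Il1b, Ramp3, Rgs1, Bcl2a1d, Avpi1, Nr4a3, Samsn1, Syngr2 and Cytip. Gadd45b, a stress sensor induced by NF-kB, had a median of 889.1 TPM (7 to 1621) in positive and 271.6 TPM (0 to 2538) in negative WT cells. In mutant cells it was 910 TPM (43 to 7041) and 124.9 TPM (0 to 2176), and the differences were 1.22 and 1.99 on the log2 scale. It was found in 42 of 42 positive cells, although the ranges overlapped. Il1b had medians of 2621 and 119.5 TPM in positive and negative WT cells and 1916 and 139.6 TPM in mutant cells, with differences of 1.52 and 1.38. Its highest level, 22228 TPM, was in a negative mutant cell. Rgs1, which damps signalling from chemokine receptors, differed by 1.69 and 1.01, and Ramp3, a partner of the calcitonin-like receptor, by 1.64 and 1.13. Nr4a3, an orphan nuclear receptor, was found in 40 of 42 positive cells and differed by 1.14 and 1.21. Cytip, a regulator of adhesion in dendritic cells and lymphocytes, differed by 1.24 and 1.02.

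Bcl2a1b and Bcl2a1d are survival genes of the Bcl2 family and near-identical neighbours on chromosome 9, so reads could have been shared between them and each value is uncertain. Bcl2a1b differed by 1.62 in WT and 1.29 in mutant and Bcl2a1d by 1.33 and 1.29. Their RefSeq promoters (GRCm38.p6) show the likeness around an AP-1 motif, TGANTCA, given in capitals 164 and 114 bases before the start, at chr9:89199094-89199130 (plus strand) and chr9:88731943-88731979 (minus strand).
Bcl2a1b: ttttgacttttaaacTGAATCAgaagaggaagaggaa
Bcl2a1d: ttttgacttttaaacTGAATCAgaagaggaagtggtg
AP-1 motifs on either strand were in 2 of the 10 matched higher genes, which are Bcl2a1b and Bcl2a1d with their near-identical stretches. They were in 6.24% of the 5877 matched genes compared and in 8.97% of all 27025 RefSeq promoters, windows from 250 bases before to 50 after the start.

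**Figure D4:**
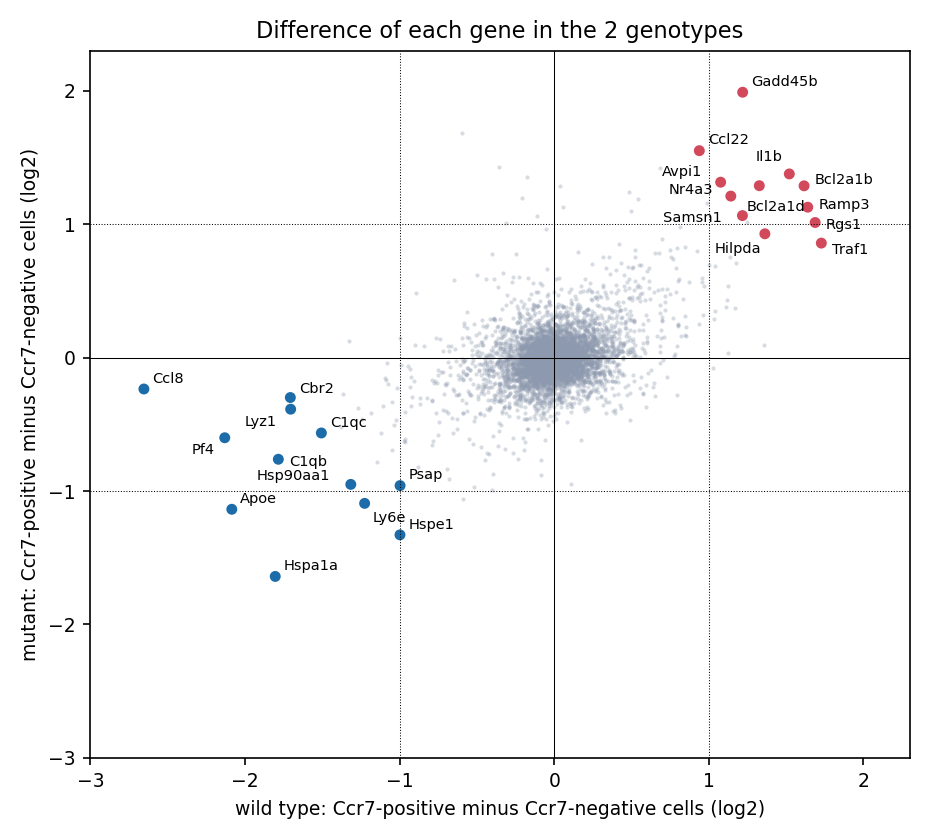
Difference of each of the 7711 genes between Ccr7-positive and Ccr7-negative cells, in WT (x axis) and mutant (y axis), on the log2 scale, with the named genes coloured. Gadd45b is highest among them in mutant at 1.99, Traf1 is highest in WT at 1.73, and Ccl8 is at -2.65 in WT but -0.24 in mutant.

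Traf1, Ccl22 and Hilpda were among the 12 largest differences but passed 1 in a single genotype. Traf1 differed by 1.73 in WT and 0.86 in mutant. Ccl22 differed by 0.94 in WT and 1.55 in mutant, with mean levels of 614 against 45.9 TPM in WT and 987 against 29.4 TPM in mutant. It was found in 52.4% of positive cells (36.4 to 67.996%) and 13.6% of negative cells (7.63 to 21.8%). Hilpda, a lipid droplet protein of hypoxic cells, differed by 1.36 and 0.93.

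Among the lower genes, the heat shock chaperone Hspa1a differed by -1.80 in WT and -1.64 in mutant, Apoe, a lipid carrier of macrophages, by -2.09 and -1.14, and Ly6e by -1.23 and -1.09. Hspa1a was found in 13 of 42 positive cells, and its highest level in positive WT cells was 3656 TPM against 15991 TPM in negative ones. In mutant cells the highest levels were 37386 and 33815 TPM; a single positive cell held the higher one. Hspe1 (-0.998 and -1.33) and Hsp90aa1 (-1.32 and -0.95) are other heat shock genes. C1qb (-1.78 and -0.76), C1qc, Pf4 (-2.13 and -0.60), Cbr2 and Ccl8 are genes of resident macrophages. Lyz1 (-1.70 and -0.39) and the lysosomal protein Psap (-0.997 and -0.96) complete the 12. C1qa was found in 30 of 103 negative cells and 2 of 42 positive ones.

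Cells with C1qa, Cd3e or Cd3g were then left out of both sides, which left 35 positive and 68 negative cells. Of 7886 genes compared, 6 were higher (0.0761%) and 1 lower (0.0127%), and 4 of the 6 were among the 11 above. They were Ccl22 (1.41), Ramp3 (1.37), Tspan3 (1.17), Bcl2a1d (1.15), Bcl2a1b (1.12) and Nr4a3 (1.12), and the lower gene was Hspa1a (-1.13). Gadd45b differed by 1.38 on average, Rgs1 by 1.196 and Il1b by 1.17. Of the macrophage genes, Apoe was at -0.32, Pf4 at -0.04, C1qb at -0.02 and Ccl8 at 0.02. Irf8 was found in 8.57% of positive and 38.2% of negative cells.

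The 15 genes of the NF-kB list were all higher in positive cells on average and 14 in both genotypes, where 1986 of all 7711 genes were. Their median was 0.53 (0.57 in WT, 0.35 in mutant) beside -0.01 over all genes, although 0 of 15 passed 1 in both genotypes. Traf1 led, followed by the inhibitor Nfkbib (1.17 in WT, 0.71 in mutant), the ubiquitin ligase Birc3 (1.04 and 0.68), the feedback enzyme Tnfaip3 (0.79 and 0.67), the inhibitor Nfkbie (1.04 and 0.35) and the inhibitor Nfkbia (0.52 and 0.81). The subunits Nfkb1, Nfkb2 and Rel averaged 0.53, 0.52 and 0.50, Relb 0.28 and Rela 0.08. Without cells holding C1qa, Cd3e or Cd3g the median was 0.43 and all 15 stayed higher.

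RefSeq promoters were found for 12 of the 15. An NF-kB motif, on either strand and counted once per promoter where matches overlapped, lay in 7 of the 12 (58.3%), in 12.7% of the 5877 matched genes compared and in 9.55% of all 27025 promoters. Promoter stretches of 4 members are shown because the list was higher as a group, with the motif in capitals and a match meaning only that these letters occur there. They are at chr12:55492652-55492691 (minus strand), chr19:46304683-46304722 (plus), chr17:45555579-45555618 (plus) and chr11:23771036-23771075 (minus).
Nfkbia: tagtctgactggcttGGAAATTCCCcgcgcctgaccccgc
Nfkb2: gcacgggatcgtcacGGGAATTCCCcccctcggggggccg
Nfkbie: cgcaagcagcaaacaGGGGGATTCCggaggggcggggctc
Rel: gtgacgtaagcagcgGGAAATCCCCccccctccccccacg
Of the 2 matched genes among the 3 lower ones, 1 held the motif, Hspa1a. Of the 10 matched genes among the 11 higher ones, 1 held the motif, Ramp3, and of the 21 matched mature migratory genes, 1 did.
Ramp3: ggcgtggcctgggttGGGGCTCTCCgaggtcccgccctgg
This window lies at chr11:6658467-6658506 on the plus strand.

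Of the mature migratory list, 20 of 28 genes were at or above 1 TPM in 10% of cells of either side and 19 of these were higher, 18 in both genotypes, where 1986 of all 7711 genes were, with a median of 0.48 in WT and 0.47 in mutant. A gene could enter through positive cells alone, and could then hardly be lower, so the count was partly set by the filter. Ccl17 entered so, found in 4 of 15 positive and 3 of 58 negative WT cells, and 7 of 27 and 2 of 45 mutant cells. Samsn1 passed 1 in both genotypes, at 1.22 and 1.06. Some genes sit in several lists, and Traf1, Birc3 and Relb belong to this one and to the NF-kB list. Ccl17 averaged 0.72, Il4i1 0.75, the membrane glycoprotein Tmem123 0.79 and the actin regulator Marcksl1 0.63. Fscn1 was found in 4 of 42 positive and 2 of 103 negative cells and fell under the limit on detection.

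Costimulatory and checkpoint genes were higher in 9 of 10, 8 of them in both genotypes, where 1986 of all 7711 genes were, with a median of 0.32. Cd83 differed by 1.09 in WT and 0.82 in mutant and Cd40, which receives T cell help, by 0.80 and 0.57. The inhibitory ligands Pdcd1lg2 and Cd274 were found in 26 and 33 of the 42 positive cells and in 16 and 35 of the 103 negative cells. Il7r, the receptor for IL-7, was found in 34 of 42 and 38 of 103, and differed by 1.14 and 0.75. It was found in 28 of the 35 class II cells, which had no Cd3e or Cd3g.

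The cDC2 genes had different values in WT and mutant. The median of 11 genes was -0.13 in WT and 0.57 in mutant, with 3 genes higher and 3 lower in both. Mgl2 differed by -0.36 in WT and 1.43 in mutant, Cd209a by -0.21 and 1.198, and Cd209d by -0.59 and 1.68. In mutant cells Cd209a was found in 19 of 27 positive and 18 of 45 negative cells, and in WT in 11 of 15 and 36 of 58. Of the 30 negative cells with C1qa, 28 held Mgl2 and 14 held Cd209a. Of the 68 negative cells without C1qa, Cd3e or Cd3g, 46 held Mgl2 and 39 held Cd209a. The part of the C1qa-positive cells in these values was not tested. Without cells holding C1qa, Cd3e or Cd3g, Mgl2 was at 0.56 in WT and 1.91 in mutant, so its sign in WT turned, Cd209a was at -0.09 and 1.17, and 9 of the 11 genes were higher with a median of 0.54. The difference between genotypes could not be tested. Genes of type 1 dendritic cells were lower in 9 of 10, 7 of them in both genotypes, where 2553 of all 7711 genes were. Their median was -0.15, with Irf8 at -0.40 and -0.99. Some could enter through negative cells alone, so this count was partly set by the filter. Clec9a entered so, found in 1 of 15 positive and 7 of 58 negative WT cells, and 0 of 27 and 9 of 45 mutant cells.

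Class II genes as a list were near 0 in both genotypes, at -0.18 in WT and 0.07 in mutant, and their average of 0.04 turned negative with a smaller pseudocount, with pooled cells and with negative cells matched on genes detected. Macrophage genes were lower in 15 of 16, each in both genotypes, where 2553 of all 7711 genes were, with a median of -0.59. A gene could enter through negative cells alone, and could then hardly be higher, so the count was partly set by the filter. Pf4 entered so, found in 2.38% of positive and 29.1% of negative cells. Once cells with C1qa, Cd3e or Cd3g were left out, 9 macrophage genes were compared, with a median of -0.11. Monocyte genes, under the same filter, were lower in 6 of 6, each in both genotypes, with a median of -0.24. T cell genes were higher in 12 of 12 with a median of 0.20, in a comparison where 5 of 42 positive and 5 of 103 negative cells held Cd3e or Cd3g. Genes needed 1 TPM in 10% of either side, so T cell genes could enter through the positive cells alone. That count was thus partly set by the filter. Once cells with C1qa, Cd3e or Cd3g were left out, 0 T cell genes were compared. Genes of cytoskeleton and motility were higher in 17 of 22, 13 of them in both genotypes, where 1986 of all 7711 genes were. Their median was 0.15, and they were led by Rgs1, Myo1g (0.83), Lsp1 (0.78), Marcksl1 and Tmsb4x (0.51). Immediate early genes were lower in 12 of 16, 11 of them in both genotypes, where 2553 of all 7711 genes were. Atf3 (-0.85), Fos (-0.75) and Jun (-0.71) were on one side and Junb (0.59) and Dusp1 (0.49) on the other. Jun was found in 0 of 15 positive WT cells and 29 of 58 negative ones, and in 7 of 27 positive mutant cells and 21 of 45 negative ones.

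**Figure D5:**
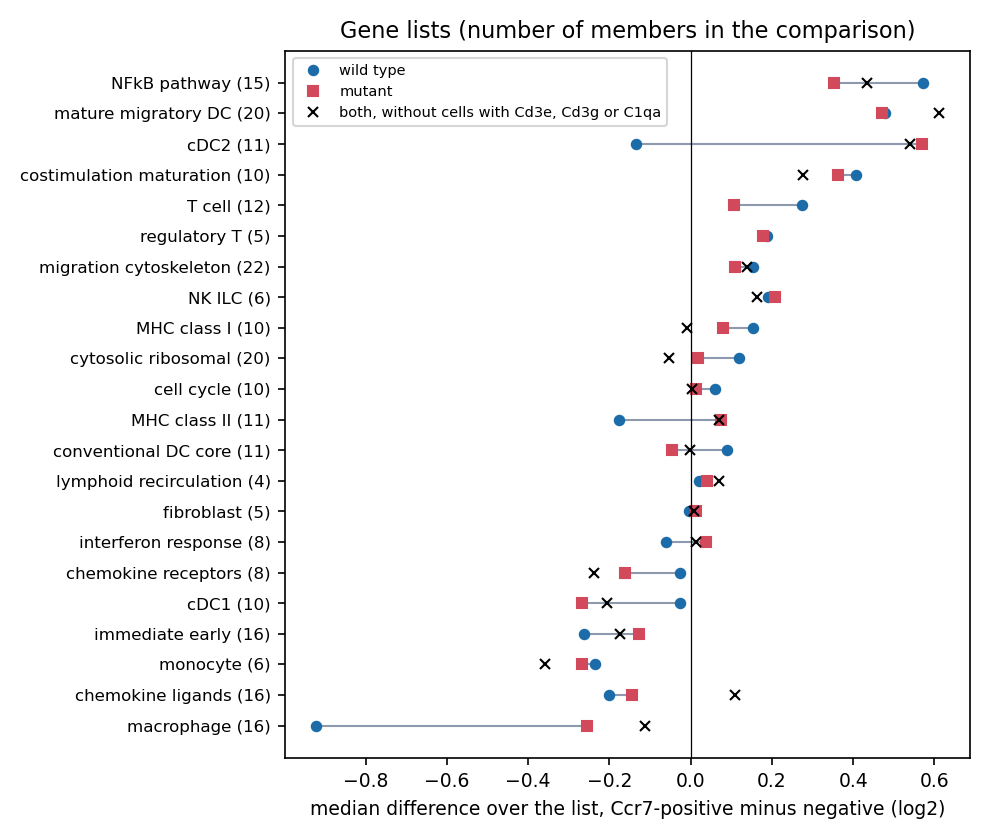
Median difference over each gene list between Ccr7-positive and Ccr7-negative cells, on the log2 scale, in WT, in mutant and in both without cells holding Cd3e, Cd3g or C1qa; the number of members compared is in brackets. The NF-kB and mature migratory lists are at 0.35 or more in each version, while cDC2 is at -0.13 in WT and 0.57 in mutant.

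Within the 35 class II cells, Ccr7 level was ranked against listed genes as a description over cells of 2 samples. The highest Spearman values were 0.53 for Actb, 0.52 for Tmem123, 0.49 for Il4i1, 0.42 for Samsn1, 0.42 for Serpinb6b and 0.41 for Zbtb46. Ccl22 had 0.39. Without the 2 cells of highest Ccr7 these values were 0.44, 0.42, 0.39, 0.31, 0.27 and 0.31, and 0.47 for Ccl22, so Serpinb6b in part rested on that pair. At the low end were Itgam at -0.45, Gna13 at -0.43 and Cd209a at -0.32, which were -0.43, -0.56 and -0.21 without that pair. The number of genes found in a cell had 0.00, so detection did not rise with Ccr7.

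Between genotypes, the 27 mutant and 15 WT positive cells had a median difference of 0.01 over 8008 genes. Higher in mutant cells were the lysozyme Lyz1 (1.52), the inhibitory Fc receptor Fcgr2b (1.10), the cytokine Mif (1.08) and Nr4a1 (1.04), an orphan nuclear receptor, followed by Ndufa12, Psma4, Slirp and Plin2 (0.91 to 0.996). Lyz1 was found in 12 of 27 mutant and 3 of 15 WT cells. Among negative cells the same genes differed by 0.20, 0.01, 0.17 and 0.88. Lower in mutant cells were Erdr1 (-2.26), Crip1 (-1.31), the stress transcription factor Atf4 (-1.27) and the urokinase receptor Plaur (-1.22), followed by Ninj1, Emp1, Vim and Vps37b (-1.09 to -0.90). Erdr1 had a median of 820.3 TPM in positive WT and 58.7 TPM in positive mutant cells, and it differed by -1.60 in negative cells as well. Of the 15 NF-kB genes, 13 were lower in mutant positive cells with a median of -0.22, where 3811 of all 8008 genes were lower. The positive cells above the class II line with no C1qa, Cd3e or Cd3g were 21 mutant and 12 WT cells. In these, 12 of the 15 were lower with a median of -0.19, where 3371 of 7417 genes were. The list in negative cells is not given here, so whether this belongs to positive cells cannot be told. Genotype and any batch cannot be told apart in these values.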

How the data were processed

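Cells of dorsal skin were captured on Fluidigm C1 chips, and full-length cDNA was made with SMARTer chemistry. Chambers that were empty or held several cells were removed by the authors after inspection under a microscope. Alignment to GRCm38 was by STAR, version 2.4.2 in the processing notes of the submitters, and RSEM gave the gene levels. Values deposited by the authors are TPM per gene and cell. TPM keeps no read depth, so the number of genes above 0 stands in for it (1291 to 5869 per cell).

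Cells needed a TPM total of 750000 or more, at most 20% in mitochondrial genes and 1000 genes above 0. This left out 10 of 155. No doublet caller was run. One column without a matching label was not used. Symbols in both tables were kept (30932; 50 were in 1 table only). TPM were divided by the cell total, multiplied by 10000 and log2-transformed after adding 1, which understates changes of low genes. Differences are positive minus negative within genotype, averaged with equal weight. Genes needed 1 TPM in 10% of either side. Named genes are the 12 largest differences each way, of the same sign in both genotypes, among genes at 1 TPM in 25% of either side, leaving out Ccr7, mitochondrial, ribosomal, predicted and sex-linked genes, with 12 a side for the split by Cd3 and 8 a side between genotypes. Defining markers were named in any case. The cells and the 31 gene lists were chosen with earlier results of these data known; 9 list genes had no row. The scripts were tested on the Ccr7-negative cells, divided at random, with large changes added to abundant genes. Small changes and rarely found genes were not tested in this way. Intervals are exact Clopper-Pearson. Alternatives changed the Ccr7 and cell limits, scale, gene filter, weighting and cells used. Python 3.11.15, pandas 2.3.3, NumPy 2.4.6 and SciPy 1.17.1 were used.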

Additional observations from a re-analysis of the deposited data

How the results depend on the processing

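The counts of genes past 1 on the log2 scale, 11 higher and 3 lower, depended on the scale. With log2 of TPM plus 1 they were 207 and 121, and with 0.1 added to scaled TPM 65 and 26. Pooling cells over genotypes gave 17 and 11. A positive cell defined by Ccr7 above 0 gave 7 and 1, leaving out cells with Cd3e, Cd3g or C1qa gave 6 and 1, and leaving out WT row H gave 7 higher and 4 lower. The last pair of settings was chosen after seeing the data, as was leaving out the 2 cells of highest Ccr7 (11 and 4). Other settings gave 10 to 15 higher and 2 to 4 lower. The positive share ran from 14.3 to 26.1% in WT and 36.1 to 40.4% in mutant, and the share with Cd3 genes from 7.50 to 14.3%. Over 15 settings the named genes kept their sign in 359 of 360 values and the lists in 297 of 320. Without cells holding Cd3e, Cd3g or C1qa, Ccl8 turned from -1.44 to 0.0223 and the chemokine ligand list from -0.26 to 0.11. No paired analysis was possible because the labels name no animal and each genotype is 1 sample. The cause of these changes was not tested. A gene at 0 in a cell may have been missed, since no read depth is known.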
